A study of Mus musculus with 25 samples.

Results

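Coagulation and complement are the protein cascades of plasma that make clots and mark and lyse microbes, and hepatocytes are the main source of most of their proteins. In coagulation, serine proteases activate each other until thrombin turns fibrinogen into fibrin, while antithrombin and protein C restrain the cascade and plasmin dissolves the clot. In complement, lectins or antibodies and their proteases cleave C4, C2 and C3, and the terminal proteins C5 to C9 assemble a pore. The genes described here are 39 members of these cascades that liver expresses, chosen by gene symbol with no measured value in the rule. All 39 were listed in each of the 5 deposited tables, which list 30524 genes in all and 24774 in common.

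The livers came from C3H/HeJ mice, a strain prone to liver tumours that carries a defective Tlr4 receptor gene, obtained at 5 weeks of age and labelled as males throughout. There were 5 groups, of 6 mice each in the study. DEN_CAF_SOR mice (5 livers) received diethylnitrosamine (DEN), an alkylating carcinogen, and later both caffeine and sorafenib, a kinase inhibitor used against liver cancer. DEN_SOR mice (4 livers) received the carcinogen and sorafenib, DEN_CAF mice (5 livers) the carcinogen and caffeine, and DEN mice (6 livers) the carcinogen and the vehicles of the drugs. Untreated mice (5 livers) had saline injections in place of the carcinogen. The carcinogen was given intraperitoneally at 25 mg/kg 2 times per week in 5 cycles over 4 months. After 1 month without injections the drugs were given by gavage for 3 weeks, caffeine at 50 mg/kg 3 times per week and sorafenib at 30 mg/kg 2 times per week. The RNA is of whole liver tissue, and the labels do not say whether a piece held tumour, so fewer cells of a type and less RNA per cell cannot be told apart.

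Assigned reads ran from 14750278 to 21992613 per liver, and the 39 genes together took 2.51% to 5.58% of them. Levels are given as FPKM, reads scaled to the length of the gene and to the assigned reads of the library, computed from the reads behind the deposited values. A gene was called where limma's Benjamini-Hochberg adjusted p over 12741 genes lay under 0.05. Of the 10 hepatocyte markers listed, 9 were in the tables and all 9 had a mean of at least 1 FPKM, with summed levels of 26836 to 88976 FPKM. Some livers stood apart. Untreated 3, 4 and 5 held 22879, 29770 and 13370 reads of Xist, a marker of female cells, and 84, 30 and 48 reads of the Y-linked gene Ddx3y, against the male label, so values of comparisons with Untreated are also given without them. DEN 4 gave 13.7% of its reads to albumin and held 132 reads of Ddx3y, which had at least 914 reads in every other liver with few Xist reads. Genes of the mitochondrial chromosome took a median of 17.2% of reads in the 10 livers numbered 3 and 4 of their groups and 7.35% in the other 15.

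The promoters of the 3 fibrinogen genes are shown first because these genes are neighbours and their levels moved together across the livers. Fga, Fgb and Fgg lie on chromosome 3 at chr3:82933383-82940934, chr3:82947448-82957170 and chr3:82915031-82922356 of GRCm39, the build of the files. The sequences are from RefSeq on GRCm38.p6, whose coordinates differ. They hold the 250 bases before the annotated start in the direction of transcription, at chr3:83025903-83026152 (plus strand), chr3:83049864-83050113 (minus strand) and chr3:83007474-83007723 (plus strand) for Fga, Fgb and Fgg. Capitals mark CTGGGA, the core of a known interleukin-6 response element, whose first base lies at -121 in Fga, -91 in Fgb and -13 in Fgg, with -1 the last base before the start.

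Fga promoter: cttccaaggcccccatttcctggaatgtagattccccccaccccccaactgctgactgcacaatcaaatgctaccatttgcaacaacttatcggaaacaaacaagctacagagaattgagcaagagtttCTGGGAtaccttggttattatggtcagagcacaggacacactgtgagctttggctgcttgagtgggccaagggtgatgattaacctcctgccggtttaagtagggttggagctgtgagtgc

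Fgb promoter: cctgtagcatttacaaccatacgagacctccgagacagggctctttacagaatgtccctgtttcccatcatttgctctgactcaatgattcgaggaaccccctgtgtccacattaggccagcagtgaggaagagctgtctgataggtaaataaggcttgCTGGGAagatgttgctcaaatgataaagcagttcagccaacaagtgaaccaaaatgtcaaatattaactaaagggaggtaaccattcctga

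Fgg promoter: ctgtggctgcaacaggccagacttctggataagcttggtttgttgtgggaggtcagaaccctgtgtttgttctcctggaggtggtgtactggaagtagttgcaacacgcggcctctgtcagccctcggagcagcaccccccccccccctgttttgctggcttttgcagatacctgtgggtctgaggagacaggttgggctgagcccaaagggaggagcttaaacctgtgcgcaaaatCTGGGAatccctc

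Promoters of the terminal complement genes C6 and C8a are shown because these genes had the widest spread among the Untreated livers. They lie at chr15:4726960-4727209 (plus strand) and chr4:104876399-104876648 (minus strand) of GRCm38.p6. Here capitals mark TTCNNNGAA, the sequence bound by STAT factors. It occurs in C8a from -228, and these letters are not in the C6 window.

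C6 promoter: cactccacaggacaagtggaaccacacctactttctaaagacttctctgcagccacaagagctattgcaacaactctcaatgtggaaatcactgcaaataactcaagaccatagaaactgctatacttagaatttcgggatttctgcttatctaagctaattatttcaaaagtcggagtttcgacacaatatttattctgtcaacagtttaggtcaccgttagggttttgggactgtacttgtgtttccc

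C8a promoter: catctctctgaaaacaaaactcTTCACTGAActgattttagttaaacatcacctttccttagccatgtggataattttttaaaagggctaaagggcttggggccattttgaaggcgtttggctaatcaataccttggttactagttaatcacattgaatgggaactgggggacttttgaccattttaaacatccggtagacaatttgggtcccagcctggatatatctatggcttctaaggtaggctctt

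Promoters were available for 30 of the 39 members. On either strand, CTGGGA occurred in 12 of these 30 (40%), against 26.8% of 27025 promoters of the same length. TTGCNNAA, a sequence of C/EBP factors, occurred in 9 (30%), against 9.55% of all. TTCNNNGAA occurred in 6 (20%), against 7.18%. In Masp2 and F9 a CTGGGA lay inside or across a TTCNNNGAA, so these are not separate matches. A match describes the letters and shows no binding.

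By level, the 3 fibrinogen chains were among the highest of the 39. Over the 25 livers, Fgg, which encodes the gamma chain, averaged 1480 FPKM and Fgb, the beta chain, 1080 FPKM. They were followed by Kng1, the kininogen that yields bradykinin, at 983 FPKM, C3, the central complement protein, at 970.1 FPKM, Fga, the alpha chain, at 909 FPKM and Plg, plasminogen, at 528 FPKM. These 6 genes lay over 500 FPKM, 19 lay between 100 and 500 FPKM and 12 between 10 and 100 FPKM. The other 2 lay under 1 FPKM. They were Cfb, factor B of the alternative pathway, with a mean of 0.892 FPKM from 15 to 75 reads per liver, and C5ar1, a receptor for C5a known from myeloid cells, with 0.281 FPKM from 1 to 97 reads. C5ar1 alone failed the filter of 1 FPKM in at least 4 livers, so 38 members were tested. Cfb and C2 overlap the gene Gm20547 on the same strand in GENCODE M21 (GRCm38), a gene that is not used here, and its part in the low Cfb value was not tested. Kng1 and Kng2, and C4b and C4a, which is not a member, are near copies, so the split of reads between them is uncertain.

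**Figure D1:**
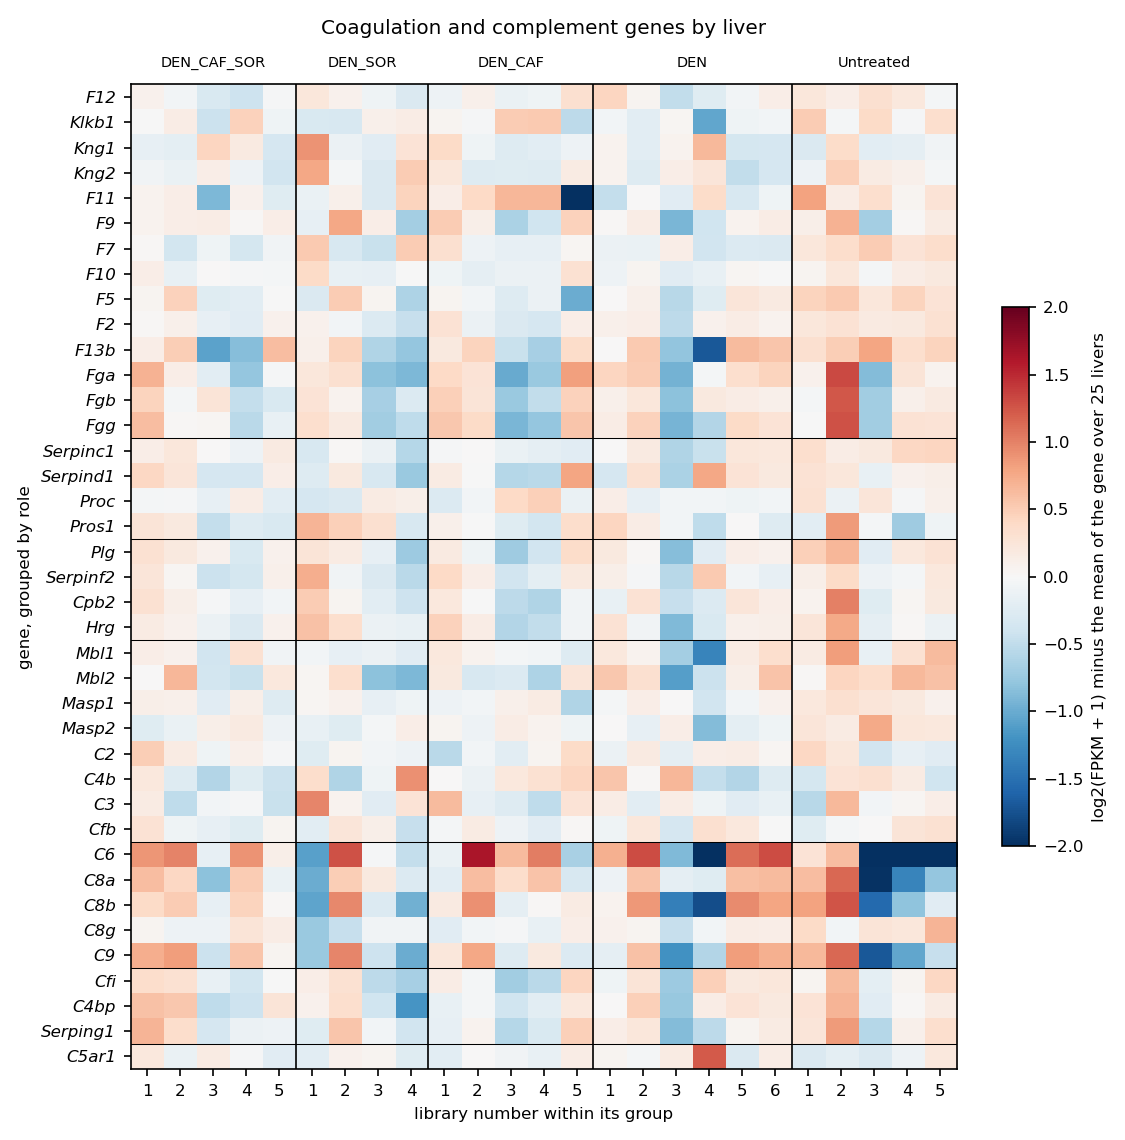
Each cell is the log2(FPKM + 1) of a gene in a liver minus the mean of that gene over the 25 livers, for the 39 members in rows by role and livers in columns by group; colours stop at 2 log2 units either way. Large departures include the terminal complement rows C6, C8a, C8b and C9, where Untreated 3 and 4 are blue, and Untreated 5 in C6. Low values also stand in C8b in DEN 3 and DEN 4, in F11 in DEN_CAF 5 (11.4 FPKM) and in F13b in DEN 4 (17.9 FPKM). In the fibrinogen rows Untreated 2 is red.

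Comparing DEN with Untreated livers sets the carcinogen course without a drug against saline. DEN mice also had the drug vehicles, which are not given above for Untreated mice, and Untreated 3, 4 and 5 hold Xist reads. The contrast therefore does not isolate the carcinogen. No member passed the test. The values leaned low, with 32 of 38 members having a negative log2 fold change and a median of -0.21, against 0.03 over all 12741 genes. DESeq2 called Masp2 and Serpinc1 lower, where it called 3.14% of all genes lower, and edgeR called no member lower, where it called 2.06%. By limma 7 of 38 members had an unadjusted p under 0.05, as had 2096 of all 12741 genes. Limma called 2.04% of all genes, so the members' 0 of 38 is no larger than this background. Without Untreated 3, 4 and 5, 36 of 38 members were negative (median -0.38, all genes 0.12) and again none was called.

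Masp2 encodes the protease that cleaves C4 and C2 in the lectin pathway. It had 108, 96.7, 119, 58.7, 94.4 and 102 FPKM in DEN livers, against 127, 121, 183, 126 and 125 FPKM in Untreated livers. Every DEN liver lay below every Untreated liver, with Untreated 3 far above the rest. The log2 fold change was -0.51 (SE 0.16, adjusted p = 0.0886 by limma and 0.0440 by DESeq2). Masp2 overlaps Tardbp on the other strand, which averaged 2044 reads per liver against 6561 for Masp2, and the strand setting of the counting is not given in the sources used here.

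F7, the protease that starts clotting with tissue factor, had 75.0, 74.1, 89.6, 61.8, 67.3 and 65.9 FPKM in DEN livers, against 95.3, 104, 116, 98.3 and 103 FPKM in Untreated livers. These groups too did not overlap, yet the log2 fold change of -0.52 did not pass (SE 0.17, adjusted p = 0.105 by limma). F2, prothrombin, was the third member without overlap, at 214.5 to 342 FPKM (median 329) in DEN livers and 350 to 382 FPKM in Untreated livers. Non-overlap in this direction held for 1.33% of all genes tested, against these 3 of 38 members. No member lay higher in every DEN liver than in every Untreated liver, as 2.60% of all genes did.

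Of the next 4 members by p, 3 were lower in DEN and C6, described with the terminal genes, was higher, and all missed the threshold. Mbl1, a mannose-binding lectin, averaged 101 ± 37.3 FPKM in DEN livers and 143 ± 38.3 FPKM in Untreated livers (SD, n = 6 and 5), log2 fold change -0.56 (SE 0.24, adjusted p = 0.231 by limma). Serpinc1, antithrombin, averaged 238 ± 55.2 FPKM in DEN livers and 300.2 ± 25.9 FPKM in Untreated livers, log2 fold change -0.37 (SE 0.16, adjusted p = 0.240 by limma and 0.0276 by DESeq2). Klkb1, plasma prekallikrein of the contact system, averaged 39.1 ± 9.08 FPKM in DEN livers and 53.4 ± 9.10 FPKM in Untreated livers (log2 -0.47, SE 0.21, adjusted p = 0.266 by limma). DEN 3 and DEN 4 were the lowest DEN livers for Mbl1 and Serpinc1 and DEN 4 for Klkb1, and the groups overlapped for all 3 genes. Without Untreated 3, 4 and 5 the log2 fold changes were -0.40 for Masp2, -0.47 for F7, -0.26 for F2, -0.71 for Mbl1, -0.31 for Serpinc1 and -0.47 for Klkb1. Their adjusted p by limma then ran from 0.377 for Mbl1 to 0.666 for F2.

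By role, 13 of the 14 genes of the contact and common clotting pathway were negative in DEN, with a median log2 fold change of -0.23, Kng1 at 0.05 being the exception. All 4 genes that restrain clotting and all 4 of fibrinolysis were negative, with medians of -0.09 and -0.26. Of the 8 genes of complement activation 7 were negative (median -0.18), and of the 5 terminal genes 1, C8g (median 0.31). Without Untreated 3, 4 and 5 all 5 terminal genes were negative (median -0.66), as were all 14 of the clotting pathway (median -0.50), and 6 of 8 activation genes (median -0.26). These last values set DEN livers against Untreated 1 and 2 only. With all livers, all 3 complement regulators, Cfi, C4bp and Serping1, were negative (median -0.13). Beside these values, 7 of 9 hepatocyte markers were negative as well (median -0.10, none called). All 7 tested cholangiocyte markers were positive (median 0.85, 1 called). Without Untreated 3, 4 and 5, 6 of 9 hepatocyte markers were negative (median -0.23). All 7 cholangiocyte markers then stayed positive (median 0.80), and none of either list was called. The hepatocyte markers summed to 27271 to 88976 FPKM in DEN livers and 39818 to 54417 FPKM in Untreated livers. The cholangiocyte markers summed to 27.1 to 94.9 FPKM in DEN livers and 13.6 to 18.9 FPKM in Untreated livers, and no marker of either list was at 0 in all livers. Their part in the members' values was not tested. The 95% interval of the fold change lay within 2-fold either way for 30 of 38 members and within 1.5-fold for 11.

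**Figure D2:**
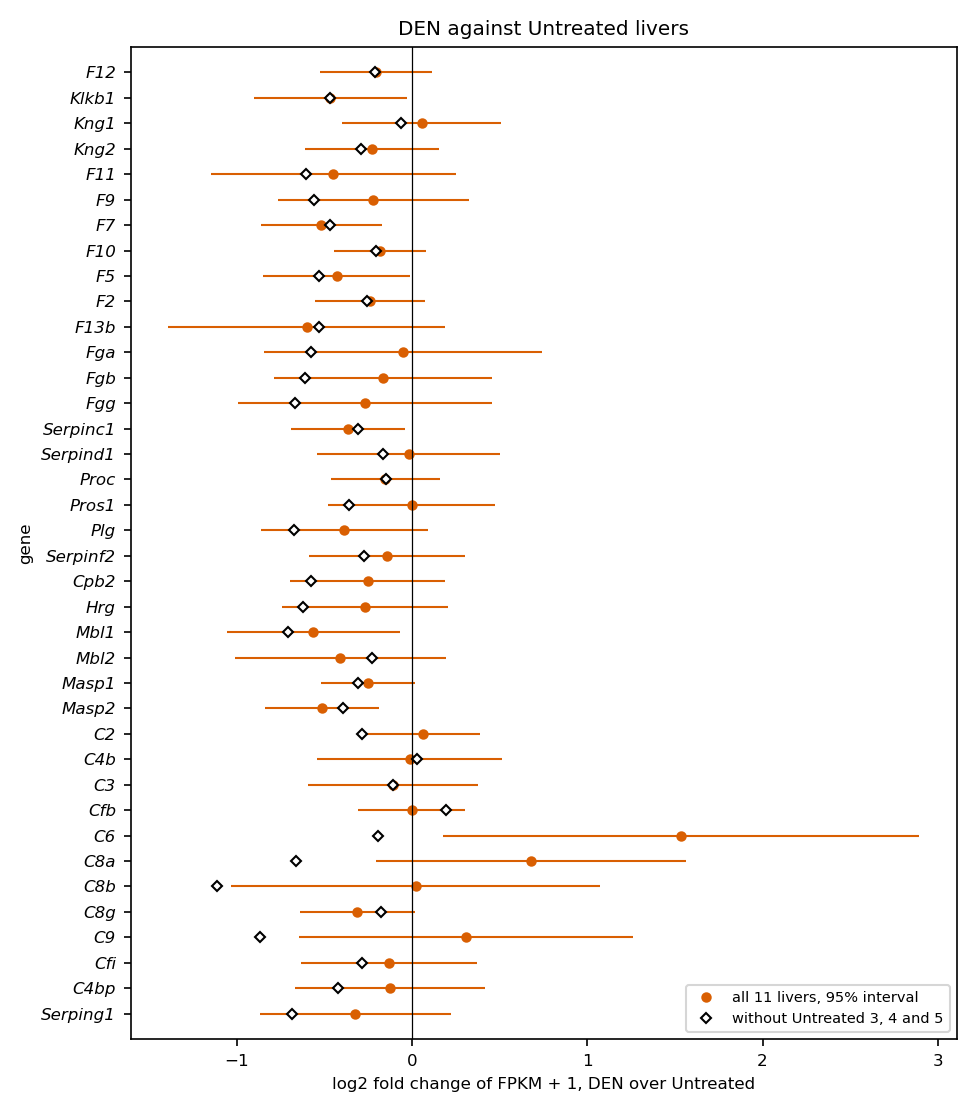
Log2 fold change of FPKM + 1, DEN over Untreated, for the 38 tested members by role: filled points use all 11 livers and carry 95% intervals, open diamonds leave out Untreated 3, 4 and 5. Most points lie left of 0, and C6, C8a, C8b and C9 shift left by over 1 log2 unit without these livers.

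C6, C8a, C8b and C9 encode parts of the membrane attack complex, in which C8 binds the complex of C5b, C6 and C7 and C9 forms the pore. Their values were split within the Untreated group, and their livers are printed because of this spread, seen in the values. C6 had 43.2, 66.1, 13.6, 5.66, 57.8 and 65.9 FPKM in DEN livers, against 31.6, 40.8, 4.24, 2.91 and 5.12 FPKM in Untreated livers. The 3 low Untreated livers are those with Xist reads, and each of the 20 carcinogen-exposed livers lay above all 3. DEN 4 did so narrowly, at 5.66 against 5.12 FPKM in Untreated 5. DEN 3 and DEN 4, with few Xist reads, were also the lowest DEN livers. How many of all genes split this way was not counted. The log2 fold change was 1.54 (SE 0.66, adjusted p = 0.239 by limma) with all livers, and -0.19 (adjusted p = 0.941 by limma) without those 3.

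C8a, the alpha chain of C8, had 129, 208, 124, 118, 212 and 217 FPKM in DEN livers, against 214, 309, 34.8, 55.1 and 81.5 FPKM in Untreated livers. C8b, the beta chain, had 69.0, 121, 25.0, 18.5, 128 and 115 FPKM in DEN livers, against 116, 160, 21.9, 37.4 and 56.2 FPKM in Untreated livers. C9 had 114, 195, 55.4, 86.4, 231 and 214 FPKM in DEN livers, against 203, 289, 39.2, 62.8 and 93.8 FPKM in Untreated livers. In each of these genes Untreated 3, 4 and 5 were the lowest of their group and Untreated 2 the highest of the group. On the log2(FPKM + 1) scale the 3 livers with Xist reads lay below Untreated 1 and 2 by a mean difference of -2.88 for C6, -2.23 for C8a, -1.96 for C9 and -1.90 for C8b, the 4 widest gaps among the 39 members. Of the 20 carcinogen-exposed livers, 18 lay above the highest of these 3 for C8a, 16 for C9 and 15 for C8b, without such a count over all genes. For DEN against Untreated the log2 fold change of C8a was 0.68 (SE 0.43) with all livers and -0.66 without those 3, that of C8b 0.02 (SE 0.51) and -1.12, and that of C9 0.31 (SE 0.46) and -0.87. None of these 6 values was called. What separates these 3 livers beside the Xist reads was not tested.

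C8g, the small lipocalin chain of C8, went another way. It averaged 358 ± 51.6 FPKM in DEN livers (n = 6) and 446 ± 84.6 FPKM in Untreated livers (SD, n = 5), with Untreated 5 the highest at 576 FPKM. Its log2 fold change was -0.31 (SE 0.16, adjusted p = 0.333 by limma) and the groups overlapped. It was -0.18 (adjusted p = 0.772 by limma) without Untreated 3, 4 and 5.

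**Figure D3:**
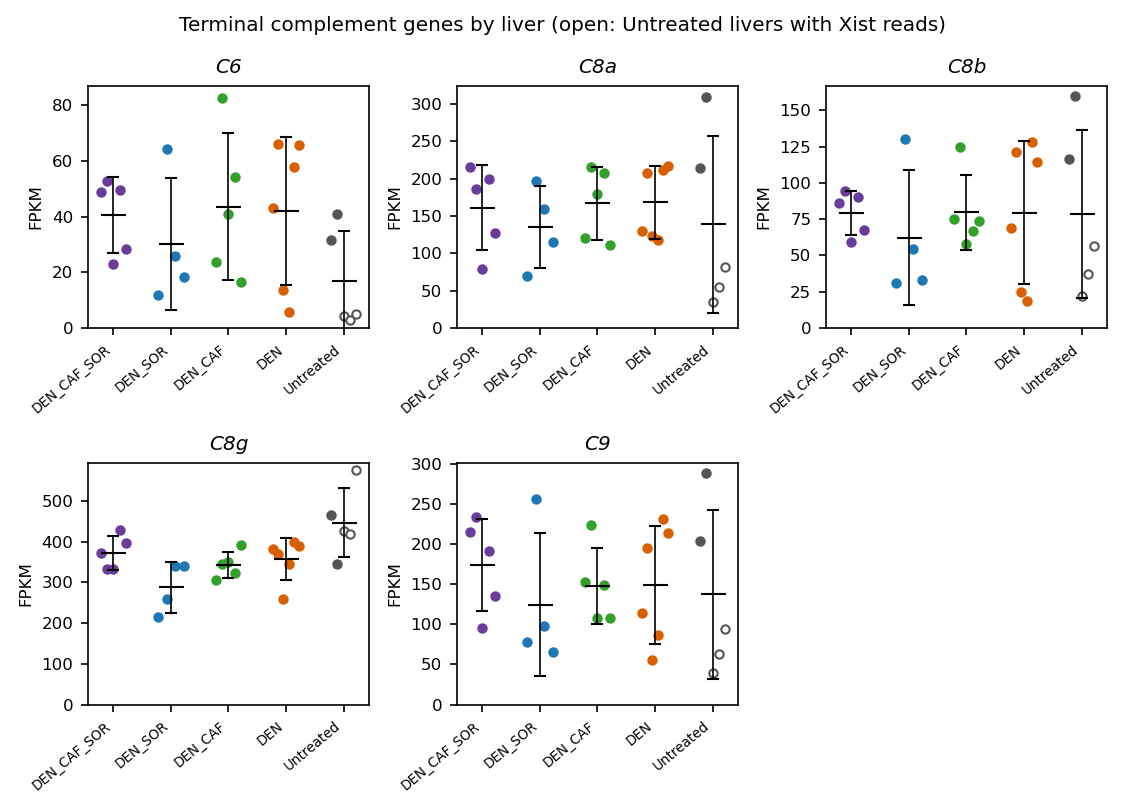
FPKM of the 5 terminal complement genes in each liver by group, with the group mean and SD; open points are the Untreated livers with Xist reads. In C6 the open points lie at 2.91 to 5.12 FPKM, below every carcinogen-exposed liver, while in C8g they lie among the highest values.

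Setting all 20 carcinogen-exposed livers against the 5 Untreated livers also gave no call among the members by limma, which called 5.21% of all genes. Among the 38 members, 10 had an unadjusted p under 0.05 by limma, as had 2607 of all 12741 genes. Of 38 members 30 were negative, with a median log2 fold change of -0.22 against 0.02 over all genes, and 36 were negative without Untreated 3, 4 and 5 (median -0.34, all genes 0.12). Beside this, all 7 tested cholangiocyte markers were positive with 5 called (median 0.76), 7 of 9 liver endothelium markers were negative with 1 called (median -0.34) and 7 of 9 hepatocyte markers were negative with none called (median -0.19). Without Untreated 3, 4 and 5 the medians of these lists were 0.75, 0.23 and -0.19 with none called. Their part in the members' values was not tested. On the recovered reads edgeR called 3 members lower, Serpinc1, F5 and C8g, against 4.20% of all genes lower. DESeq2 called 6 lower, adding F2, F12 and Masp2, against 5.06% of all genes.

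F7 had 59.3 to 117 FPKM in carcinogen-exposed livers and 95.3 to 116 FPKM in Untreated livers, log2 fold change -0.42 (SE 0.14, adjusted p = 0.0817 by limma). Masp2 stood at -0.39 (SE 0.13, adjusted p = 0.0861 by limma) and C8g at -0.39 (SE 0.13, adjusted p = 0.0875 by limma). Serpinc1 stood at -0.38 (SE 0.13, adjusted p = 0.0914 by limma, 0.0298 by edgeR and 0.00109 by DESeq2). F5, the cofactor that speeds the making of thrombin, stood at -0.48 (SE 0.17, adjusted p = 0.0997 by limma and 0.0423 by edgeR), with 17.9 to 52.8 FPKM in carcinogen-exposed livers and 43.2 to 52.8 FPKM in Untreated livers. C6 was positive at 1.59 (SE 0.54, adjusted p = 0.0926 by limma) and turned to -0.14 (adjusted p = 0.950 by limma) without Untreated 3, 4 and 5. Without these livers F7 stood at -0.37, Masp2 at -0.27, C8g at -0.26, Serpinc1 at -0.32 and F5 at -0.58, with adjusted p by limma from 0.360 for F5 to 0.601 for C8g. For all 38 members the ranges of the arms overlapped. Over all genes, every carcinogen-exposed liver was below every Untreated liver for 0.361% and above for 0.675%.

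Caffeine, sorafenib and their combination were each set against DEN to see how the drugs altered livers that had received the carcinogen. None of the 38 members was called with any drug, and in no member were all livers of a drug group above or below all DEN livers. Limma called 0.00785% of all genes for DEN_CAF, 0.00% for DEN_SOR and 0.00% for DEN_CAF_SOR, so calls were as scarce among other genes. No member had an unadjusted p under 0.05 in these 3 comparisons. Of all 12741 genes, 358, 789 and 346 had one for DEN_CAF, DEN_SOR and DEN_CAF_SOR. Nor was a member called by edgeR, where the background was 0.00785%, 0.00% and 0.00% of genes for DEN_CAF, DEN_SOR and DEN_CAF_SOR, or by DESeq2, where it was 0.0785%, 0.243% and 0.00%. Over all genes, every liver of the drug group lay below every DEN liver for 0.0549%, 0.432% and 0.165% in that order of groups, and above for 0.212%, 0.267% and 0.126%. The 3 comparisons share the DEN livers, so their values are not independent of each other. The intervals lay within 2-fold either way for 35, 33 and 35 of 38 members with caffeine, sorafenib and both, and within 1.5-fold for 19, 13 and 20.

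With caffeine the log2 fold changes ran from -0.23 to 0.34 with a median of 0.01, against 0.02 over all genes. Klkb1 had the smallest p, with 46.4, 43.9, 64.2, 65.2 and 30.8 FPKM in DEN_CAF livers, against 43.2, 38.6, 46.2, 21.2, 42.1 and 43.0 FPKM in DEN livers. DEN_CAF 3 and 4 were high, DEN 4 was low, and the groups overlapped. Its log2 fold change was 0.34 (SE 0.21, adjusted p = 1.00 by limma), and it was -0.07 among livers not numbered 3 or 4. The next were Masp2 at 0.22 (SE 0.16), F5 at -0.23 (SE 0.20), F7 at 0.16 (SE 0.17), Proc, the zymogen of protein C, at 0.13 (SE 0.15) and Cfi, the protease that inactivates C3b, at -0.20 (SE 0.24).

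With sorafenib the log2 fold changes ran from -0.42 to 0.35 with a median of -0.03, against -0.02 over all genes. C8g had 214, 258, 340.0 and 339 FPKM in DEN_SOR livers, against 381, 371, 259, 346, 398 and 390 FPKM in DEN livers, log2 fold change -0.32 (SE 0.17, adjusted p = 0.846 by limma). All 4 DEN_SOR livers lay below the DEN median, but DEN 3 lay among them. All 5 terminal genes were negative with sorafenib (median -0.32) and none was called. Beside this, all 9 tested liver endothelium markers were negative (median -0.56), 5 of 9 hepatocyte markers were negative (median -0.24) and 5 of 7 cholangiocyte markers were positive (median 0.54), with none called. The endothelium markers summed to 17.5 to 59.3 FPKM in DEN_SOR livers and 46.8 to 70.97 FPKM in DEN livers. The part of these markers in the members' values was not tested. Kng2 stood at 0.35 (SE 0.20, adjusted p = 0.880 by limma) and C3 at 0.34 (SE 0.25), both with their highest value of all 25 livers in DEN_SOR 1, which also held the highest level of 4 other members. Serpind1, heparin cofactor II, stood at -0.38 (SE 0.27), F7 at 0.24 (SE 0.18) and Pros1, the cofactor of protein C, at 0.33 (SE 0.25).

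With both drugs the log2 fold changes ran from -0.25 to 0.32 with a median of 0.01, against 0.01 over all genes. Klkb1 stood at 0.25 (SE 0.21), Masp2 at 0.16 (SE 0.16), Serpinc1 at 0.16 (SE 0.16) and F9, the protease missing in haemophilia B, at 0.26 (SE 0.26). C4b, which is cleaved by Masp2 and C1s, stood at -0.25 (SE 0.26) and Mbl1 at 0.21 (SE 0.24). The adjusted p by limma was 1.00 for each of these 6.

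**Figure D4:**
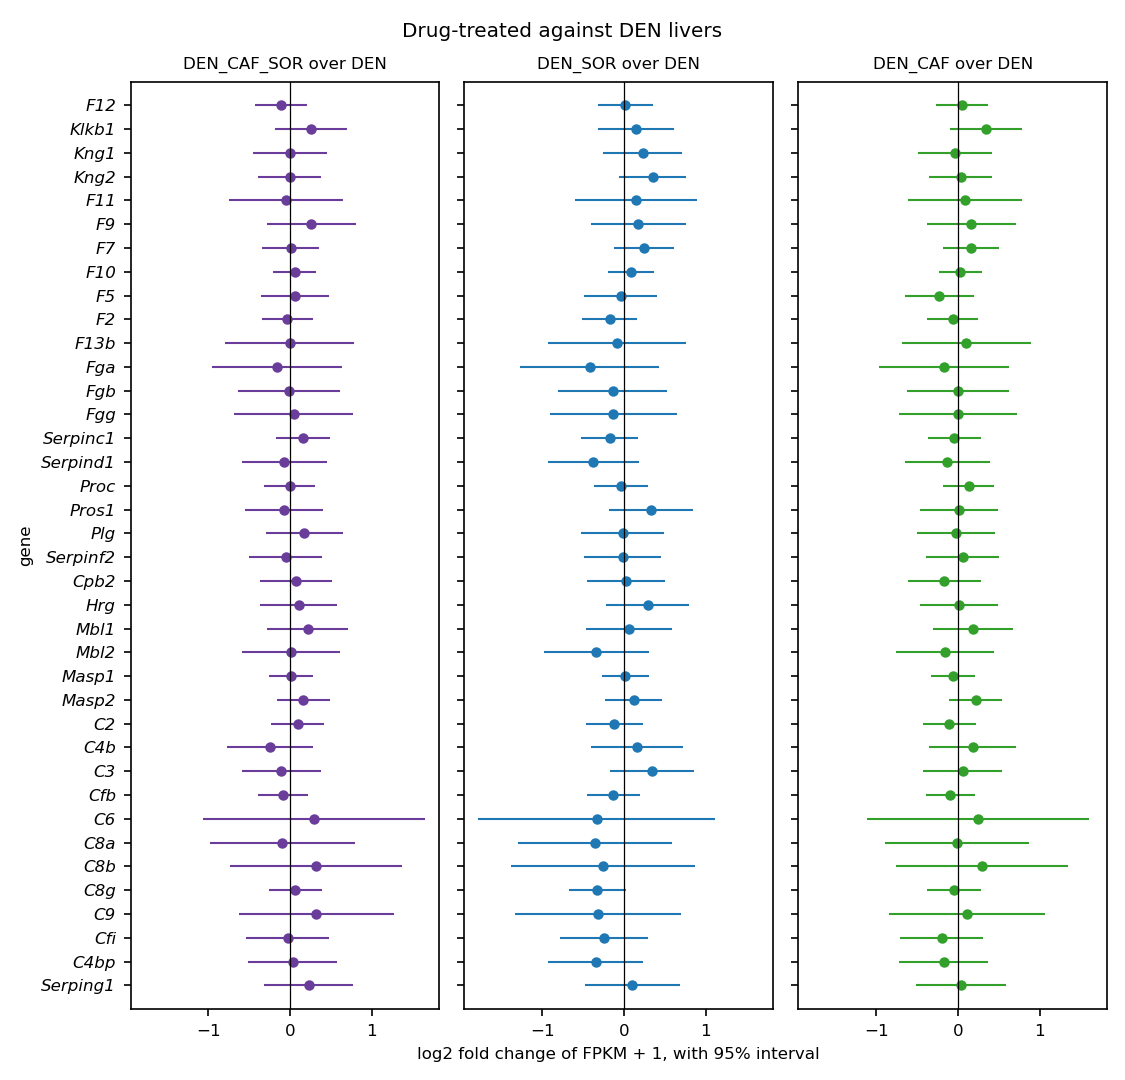
Log2 fold change of FPKM + 1 with 95% intervals for the 38 tested members by role, in 3 panels for DEN_CAF_SOR, DEN_SOR and DEN_CAF over DEN. All points lie between -0.42 and 0.35, and none of the members was called.

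The combination was also set against each drug alone. Against DEN_SOR, C8g had 373, 333, 332, 429 and 396 FPKM in DEN_CAF_SOR livers, against 214, 258, 340.0 and 339 FPKM in DEN_SOR livers, a log2 fold change of 0.39 (SE 0.18, unadjusted p = 0.0367, adjusted p = 1.00 by limma). It was the only member with an unadjusted p under 0.05 there, where 432 of all 12741 genes had one. DEN_SOR 3 and 4 overlapped the DEN_CAF_SOR livers. Serpinc1 followed at 0.33 (SE 0.17), then C3 at -0.45 (SE 0.26), Kng2 at -0.35 (SE 0.21), Pros1 at -0.41 (SE 0.26) and C4b at -0.41 (SE 0.28). Against DEN_CAF the smallest p were those of C4b at -0.43 (SE 0.27), F5 at 0.29 (SE 0.21), Serpinc1 at 0.20 (SE 0.16), C2, the protease part of the C3 convertase, at 0.20 (SE 0.16), Cpb2, which protects clots from plasmin, at 0.24 (SE 0.22) and F12, which starts the contact system, at -0.16 (SE 0.16). None was called, where limma called 0.00% of all genes in both comparisons.

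The interaction asks whether the effect of sorafenib depended on caffeine. The interaction estimate of C8g was 0.44 (SE 0.24), that of Serpinc1 0.37 (SE 0.24), of F7 -0.40 (SE 0.25), of C4b -0.59 (SE 0.38), of C3 -0.51 (SE 0.35) and of C4bp, a regulator that binds C4b, 0.56 (SE 0.39). Each had an adjusted p of 0.992 by limma. The background of calls was 0.00%, and only 22 of 38 intervals lay within 2-fold either way.

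The 6 members with the highest levels varied more between livers than between groups. Fgg averaged 1426 ± 426 FPKM in DEN_CAF_SOR, 1279 ± 434 in DEN_SOR, 1471 ± 646 in DEN_CAF, 1419 ± 481 in DEN and 1780 ± 929 FPKM in Untreated livers (SD, n = 5, 4, 5, 6 and 5). Per liver it had 2109, 1403, 1421, 948 and 1249 FPKM in DEN_CAF_SOR, 1741, 1552, 854 and 967 FPKM in DEN_SOR and 2008, 1794, 732, 808 and 2012 FPKM in DEN_CAF. It had 1527, 1893, 725, 922, 1789 and 1657 FPKM in DEN livers and 1363, 3327, 849, 1691 and 1669 FPKM in Untreated livers. Untreated 2 was the highest and DEN 3 the lowest of the 25, and all groups overlapped.

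Fgb had 1397, 994, 1225, 738 and 831 FPKM in DEN_CAF_SOR, 1236, 1072, 648 and 849 FPKM in DEN_SOR and 1430.1, 1228, 611, 726 and 1412 FPKM in DEN_CAF. It had 1100.4, 1203, 577, 1172, 1134 and 1097 FPKM in DEN livers and 993, 2430, 630, 1099 and 1161 FPKM in Untreated livers. Untreated 2 was again the highest and DEN 3 the lowest. Fga had 1354, 914, 721, 487 and 818 FPKM in DEN_CAF_SOR, 974, 1037, 469 and 446 FPKM in DEN_SOR and 1102, 1006, 414, 499.9 and 1472 FPKM in DEN_CAF. It had 1124, 1179, 432, 813, 1055 and 1129 FPKM in DEN livers and 881, 2073, 458, 999.9 and 874 FPKM in Untreated livers. Fga was lowest in DEN_CAF 3, and livers numbered 3 and 4 were low in most groups.

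C3 had 1050, 658, 902, 926 and 687 FPKM in DEN_CAF_SOR, 1841, 989, 802 and 1137 FPKM in DEN_SOR and 1450, 834, 780, 658 and 1134 FPKM in DEN_CAF. It had 1034, 807, 1037, 879, 803 and 843 FPKM in DEN livers and 635, 1472, 901, 965 and 1032 FPKM in Untreated livers. DEN_SOR 1 was the highest and Untreated 1 the lowest.

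Kng1 had 851, 837, 1292, 1081 and 758 FPKM in DEN_CAF_SOR, 1791, 886, 820 and 1155 FPKM in DEN_SOR and 1243, 899, 800, 829 and 887 FPKM in DEN_CAF. It had 1004, 825, 1009, 1501, 745 and 760 FPKM in DEN livers and 785, 1240, 826, 847 and 913 FPKM in Untreated livers. DEN_SOR 1 was again the highest. Plg had 629, 584, 542, 413 and 543 FPKM in DEN_CAF_SOR, 613, 573, 455 and 307 FPKM in DEN_SOR and 579, 483, 312, 392 and 658 FPKM in DEN_CAF. It had 586, 518, 283, 438, 563 and 544 FPKM in DEN livers and 714, 807, 435, 593 and 625 FPKM in Untreated livers. In Plg, Untreated 2 was the highest and DEN 3 the lowest.

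**Figure D5:**
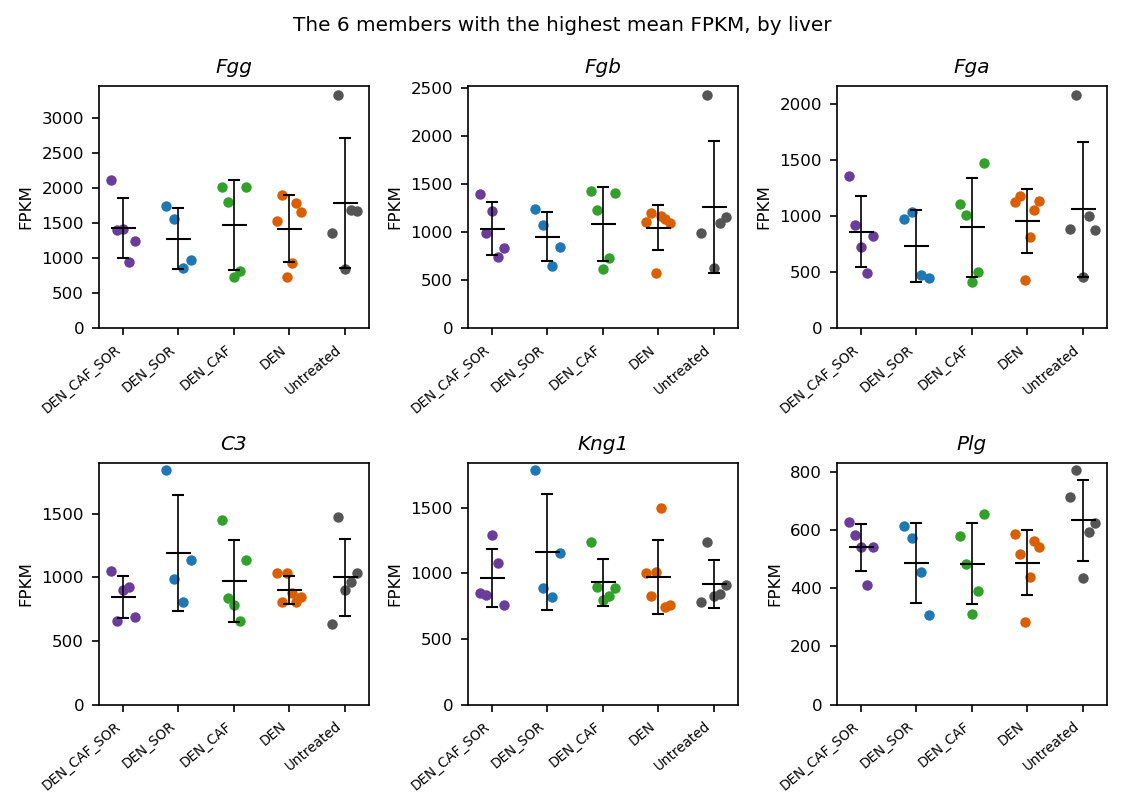
FPKM of Fgg, Fgb, Fga, C3, Kng1 and Plg in each liver by group, with the group mean and SD. Untreated 2 stands above all other livers in the 3 fibrinogen genes, at 3327 FPKM for Fgg, and DEN_SOR 1 in C3 and Kng1.

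Untreated 2 held the highest level of 16 of the 39 members and DEN 3 the lowest of 13. Beside this, the summed level of 20 acute phase genes, a list without any member, was 30771 FPKM in Untreated 2 and 22812 FPKM in DEN_SOR 1, the highest of the 25, against medians of 9688 FPKM in DEN_CAF_SOR, 9563 in DEN_SOR, 9187 in DEN_CAF, 9625 in DEN and 6177 FPKM in Untreated livers. DEN 3 gave 33.4% of its reads to mitochondrial genes. In every group 17 of the 38 tested members were lower in the livers numbered 3 and 4 than in the others, the 3 fibrinogen genes among them, and none was higher in every group. Over all genes tested, 11.1% were lower and 8.01% higher in every group. With mitochondrial reads left out of the totals, 12 members were lower and 3 higher in every group, against 5.17% and 18.5% of all genes. In the Untreated group both livers numbered 3 and 4 hold Xist reads, so there the number and these reads cannot be fully told apart. The part of these library features in the members' values was not tested.

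Members that lie near each other were compared across the 25 livers as 15 pairs within 1 Mb, on the log2(FPKM + 1) scale. The pairs of fibrinogen genes had the highest r of the 15. Fga and Fgg had a Pearson r of 0.949 and a Spearman rho of 0.905 (permutation p = 1e-05 for both, the smallest that 100000 permutations can give, adjusted 3.75e-05), and r was 0.928 without the 2 livers farthest from the median of Fga. Fgb and Fgg had r = 0.929 and rho = 0.900, and Fga and Fgb r = 0.920 and rho = 0.791. Within the livers numbered 3 and 4 the 3 values of r were 0.826, 0.803 and 0.882, and within the others 0.907, 0.982 and 0.896. The pairs share library and depth, and are printed as a description of these livers.

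Kng1 and Kng2 had r = 0.827 and rho = 0.827, with reads that their similarity may mix. C8a and C8b, which lie 11131 bases apart on chromosome 4, had r = 0.764 and rho = 0.798, with r = 0.576 in the livers numbered 3 and 4 and 0.938 in the others. Without the 2 livers farthest from the median of the first gene, r was 0.895 for Fgb with Fgg, 0.890 for Fga with Fgb, 0.768 for Kng1 with Kng2 and 0.713 for C8a with C8b. F7 and F10, neighbours on chromosome 8, had r = 0.532 and rho = 0.552 (adjusted permutation p = 0.0149 and 0.0104), with r = 0.419 and 0.664 in these 2 sets of livers and 0.491 without the 2 farthest. F11 and Klkb1 had r = 0.512 and rho = 0.618 (adjusted permutation p = 0.0262 and 0.00287). Without the 2 livers farthest from the median of F11 r was 0.374, so its size depends in part on those livers. In the livers numbered 3 and 4 r was 0.365, and in the others 0.728. C4b and Cfb had r = -0.499 and rho = -0.438 (adjusted permutation p = 0.0249 and 0.0554), and r was -0.266 without the 2 farthest livers. The other 7 pairs had adjusted permutation p of r from 0.263 to 0.874, Hrg with Kng1 and with Kng2 among them.

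C5ar1, left untested, had 0.0195 to 1.91 FPKM (median 0.338) in DEN livers and 0.0243 to 0.450 FPKM (median 0.0923) in Untreated livers. DEN 4 held the highest value, from 97 reads, and also the highest summed level of 10 monocyte and neutrophil markers, 455 FPKM against a DEN median of 50.6 FPKM. With caffeine C5ar1 ran from 0.0784 to 0.384 FPKM, with sorafenib from 0.0528 to 0.319 FPKM and with both from 0.0649 to 0.439 FPKM, all below DEN 4.

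Of 25 further coagulation genes 14 were tested and of 31 further complement genes 23. Of these 37, limma called 1 in any comparison, Fcna with carcinogen exposure, where it called 5.21% of all genes. Fcna, ficolin A, is a lectin that mouse macrophages make. It ran from 4.84 to 29.2 FPKM in carcinogen-exposed livers, and had 19.3, 22.3, 20.9, 39.4 and 42.8 FPKM in Untreated livers, which gave a log2 difference of -1.097 (SE 0.31, adjusted p = 0.0368 by limma). Its 2 highest livers were Untreated 4 and 5, and without Untreated 3, 4 and 5 the difference was -0.71 (SE 0.46, adjusted p = 0.519 by limma). With 1 liver left out at a time the adjusted p by limma ran from 0.0148 to 0.130, and Fcna missed the threshold when the liver left out was DEN_SOR 1 or one from the Untreated group. Without Untreated 3, 4 and 5 limma called another gene of these lists, Serpine2, a serpin that inhibits thrombin, at -0.98 (adjusted p = 0.0386 by limma). In that run it called 40 of all genes. Serpine2 had 3.25 and 1.97 FPKM in the 2 Untreated livers that remain and averaged 0.964 FPKM over all 25. The arms overlapped for Fcna, and the Kupffer cell markers stood at a median of -0.14 with 7 of 10 negative and none called. These markers summed to 107 to 376 FPKM in DEN_CAF_SOR, 92.7 to 214 in DEN_SOR, 74.8 to 283 in DEN_CAF, 101 to 206 in DEN and 100.4 to 224 FPKM in Untreated livers, and their part in the Fcna value was not tested. In DEN against Untreated the smallest p were those of Fcna at -1.16 (SE 0.37, adjusted p = 0.102 by limma) and C4a at 1.61 (SE 0.61, adjusted p = 0.173 by limma), which turned to -0.36 without Untreated 3, 4 and 5.

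With the drugs the other pathway genes with the smallest p were C4a at -1.41 (SE 0.61) and Cd59a, an inhibitor of the terminal pore, at 0.39 (SE 0.18) for DEN_CAF against DEN. They were Colec11, a collectin, at -0.70 (SE 0.27) and C4a at -1.45 (SE 0.65) for DEN_SOR against DEN, and Fcna at 0.63 (SE 0.37) and F3, tissue factor, at 0.34 (SE 0.23) for DEN_CAF_SOR against DEN. For DEN_CAF_SOR against DEN_SOR they were Cd55, which breaks up C3 convertases, at 0.71 (SE 0.24), and Colec11 at 0.72 (SE 0.29), and for DEN_CAF_SOR against DEN_CAF C4a at 1.29 (SE 0.63) and Fcna at 0.76 (SE 0.39). The interaction estimates were 2.74 (SE 0.90) for C4a and 0.83 (SE 0.33) for Cd55. None of these drug values was called.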

How the data were processed

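RNA of 25 mouse livers was sequenced from SMARTer libraries, per the labels' protocols; HISAT2 2.0.5, featureCounts 1.5.0-p3 and GRCm39 are named in the submitters' processing notes. The sources used here give neither strand setting nor annotation release. The deposited signal is, per the values, whole reads divided by 1 size factor per library (100% whole within 0.01 read), scaled by the authors in 5 separate tables, so reads were recovered. The design had assumed FPKM; FPKM was computed here from recovered reads, library totals and listed gene length.

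Genes with at least 1 FPKM in at least 4 libraries were tested with limma 3.58.1 (R 4.3.3) on log2(FPKM + 1), a scale that understates changes of low genes. It was 1 fit of all libraries with 20 residual degrees of freedom and a trend, adjusted within each of 8 comparisons, two-sided at 0.05. edgeR 4.0.16 and DESeq2 1.42.0 used the recovered reads. Steps were tested on simulated data. Named members are those called or, up to 6 per comparison, with the smallest p, the 6 highest by FPKM and any under the filter. Members and lists were chosen with earlier results of these data known. Same-numbered livers correlated over 0.1 in all 5 pairs for DEN_CAF and DEN alone. In an alternative run the library number was a block in the fit of all groups. Alternatives were other scalings, filters, tools, blocks and left-out livers. Permutations numbered 100000 (scipy).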

Additional observations from a re-analysis of the deposited data

Results flagged for a closer look

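In 12 of the 195 combinations of a member and a group, 1 liver lay apart from its group by the gap between it and the nearest other liver. Chance alone marks about 1 in 20 such combinations. In DEN 3, F2 (214.5 FPKM, next 325) and Fgb (577 FPKM, next 1097) were low. In DEN 4, Kng1 (1501 FPKM, next 1009) and C5ar1 (1.91 FPKM, next 0.401) were high and Klkb1 (21.2 FPKM, next 38.6) was low. In DEN 1, Proc was high (319 FPKM, next 281).

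With caffeine, F10 was high in DEN_CAF 5 (238 FPKM, next 180.4), Kng1 in DEN_CAF 1 (1243 FPKM, next 899) and C8b in DEN_CAF 2 (125 FPKM, next 75.0). Among Untreated livers, Kng1 (1240 FPKM, next 913) and Cpb2 (352 FPKM, next 201) were high in Untreated 2 and Masp2 in Untreated 3 (183 FPKM, next 127). Untreated 2 had the highest summed level of acute phase genes and Untreated 3 is a liver with Xist reads.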

How the results depend on the processing

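No member was called by limma in any of the 8 comparisons, and in the 6 that do not involve Untreated livers no alternative run called any. For DEN against Untreated, DESeq2 called 2 (Masp2 and Serpinc1) and the livers numbered 3 and 4 alone called 1 (F13b, log2 -1.81), a set whose Untreated livers both hold Xist reads. Leaving out 1 liver at a time gave 0 there. For carcinogen-exposed against Untreated, TMM scaling called 3, edgeR 3 and DESeq2 6. The livers numbered 3 and 4 as a term called 2, those livers alone 3 and the others alone 2. These runs called 836, 1017, 1503, 960, 280 and 736 of all genes, in that order. The members called were lower with exposure, except C6 with the term (log2 1.60) and C6 (2.45) and C8a (1.67) in livers 3 and 4 alone. Both Untreated livers of that set hold Xist reads. Leaving out 1 liver at a time gave 0 to 2, with 1 without Untreated 2, 2 without DEN 4, and 1 without DEN_SOR 1, DEN_SOR 2 or DEN_SOR 4. The calls over all genes in these runs are not given here. With all livers limma called 664 of all genes (5.21%), so these few calls are not read as a result about the members. The replicate block called 0 in each comparison and changed no call. Same-numbered livers of 2 groups correlated over 0.1 in 18 of 28 pairs (-0.24 to 0.54). Cause was not tested for any of these.

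Among the 6 members with the smallest p in each comparison, signs turned in 16 cases, none called. Without the livers with Xist reads C6 was at -0.19 for DEN and -0.14 for carcinogen-exposed against Untreated, and over all 38 members 8 signs turned in each of these comparisons, those of C8a, C8b, C9, C2, Cfb and Kng1 in both. Fcna, called for carcinogen-exposed against Untreated, was not called without any filter on low values (adjusted p = 0.0613 by limma), nor in the livers numbered 3 and 4 alone (0.0762) or the others alone (0.211). Among livers not numbered 3 or 4, DEN_CAF against DEN gave Klkb1 -0.0673, Proc -0.107 and Cfi 0.0315, and DEN_CAF_SOR against DEN gave Masp2 -0.0474 and Mbl1 -0.15. Among those numbered 3 and 4, DEN_CAF against DEN gave F5 0.21 and F7 -0.0402, DEN_SOR against DEN C8g 0.18 and Kng2 -0.0699, DEN_CAF_SOR against DEN_CAF F5 -0.0387, and the interaction C8g -0.0165, Serpinc1 -0.0753 and C3 0.35. With 1 liver left out at a time, Mbl1 ran from -0.00877 (without DEN 4) to 0.323 (without DEN 6) for DEN_CAF_SOR against DEN. Over all genes, DEN against Untreated had 260 calls by limma, 598 by edgeR, 1040 by DESeq2, 477 with the livers numbered 3 and 4 as a term, 504 in those livers alone, 160 in the others alone and 34 without the livers with Xist reads. Carcinogen-exposed against Untreated had 664 by limma, 1017 by edgeR, 1503 by DESeq2, 280 in the livers numbered 3 and 4 alone and 40 without those with Xist reads. With 4 to 6 livers per group, 2-fold differences of single members could be missed.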
